A study of Mus musculus with 4 samples.

Results

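The MHC class I antigen presentation genes described here are 10 mouse genes chosen by symbol: the heavy chains H2-K1 and H2-D1, the light chain B2m, the peptide transporter Tap1 and Tap2, its adaptor Tapbp, the transactivator Nlrc5, and the immunoproteasome subunits Psmb8, Psmb9 and Psmb10. All 10 were found among the 50600 genes of the deposited table, and all 10 passed the low-count filter that left 12573 genes for testing. They were read in adipose-derived regenerative cells (ADRCs), which are mesenchymal cells grown out of mouse fat of the inguinal and axillary pads, and in ADRCs turned toward cardiomyocytes. The ADRC group held 2 libraries of passage 2 cells from mice of 8 weeks, with the strain label C57BL/6J. The 6F group held 2 libraries of ADRCs given 6 transcriptional factors by lentivirus and collected 3 weeks later by sorting for GFP, also at passage 2. Their strain label is C57BL/6-Tg (Myh6-EGFP) MG3Tm; MG3, a transgene that puts GFP under the promoter of the alpha myosin heavy chain gene Myh6, and no age is given for these mice. The ADRC titles name a control positive for that reporter, at odds with the strain label of those libraries. Transduction, time in culture, sorting and, by the strain labels, strain therefore changed together and cannot be told apart. Whether the 2 libraries of a group stem from different cultures is not labelled, and p-values therefore reflect a spread between libraries that may be technical.

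MHC class I molecules display short peptides from inside a cell to CD8+ T cells. Proteasomes cut the peptides, and in the immunoproteasome Psmb8, Psmb9 and Psmb10 take the places of the constitutive catalytic subunits Psmb5, Psmb6 and Psmb7. The TAP1-TAP2 transporter carries the peptides into the endoplasmic reticulum, where tapasin (Tapbp) holds the transporter next to an empty heavy chain paired with beta-2 microglobulin (B2m) until a peptide binds. Interferons raise these genes in many cell types, partly through NLRC5, which acts at the promoters of class I genes together with the RFX and NF-Y factors.

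The libraries differed in depth as well as in cells. The 2 ADRC libraries, a and b, held 2273897 and 2662128 exon reads, while 7593772 and 6986223 were counted for the corresponding 6F pair. Reads outside exons were not analysed here, but exon reads were a far smaller share of the reads assigned to genes in ADRCs than in 6F cells. The part of that difference in the exon read values below was not tested. As a check of the labels, 7 of 8 cardiomyocyte markers were called higher in 6F cells. Several of them passed the low-count filter only through their 6F libraries. Of all genes tested, 24.2% were called higher and 22.8% lower. Myh6, whose promoter drives the GFP used for sorting, stood at 9 and 11 reads in ADRCs and 12810 and 6489 in 6F cells. Actn2 was the marker not called, with a log2 fold change of -1.06. Of 10 mesenchymal markers, Col1a1 and Vim among them, all had reads in every library, while 6 were called lower and 2 higher in 6F cells. In such bulk RNA, fewer cells of a type and less RNA per cell cannot be told apart.

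The class I genes did not move as a block. Expression was taken as CPM, exon read counts per library size after scaling by the TMM method, and a gene was called when edgeR's quasi-likelihood test gave an adjusted p under 0.05 over all genes tested. Tapbp, B2m, Tap1 and Psmb9 were called higher in 6F cells, Psmb8 was called lower, and H2-K1, H2-D1, Tap2, Nlrc5 and Psmb10 were not called. Psmb9 passed the low-count filter only through its 6F libraries. Of the genes tested 24.2% were called higher and 22.8% lower, so the 4 and 1 of 10 class I genes stand beside a background in which 47.0% of all genes were called. With every library thinned to the depth of the shallowest, H2-K1 was called higher in place of Tap1, and Psmb10 was called lower beside Psmb8. Libraries of the 2 groups did not overlap for 9 of the 10 genes, with 6F above ADRC for 7 and below for 2, where 40.5% and 37.4% of all tested genes did so. The median log2 fold change of the 10 genes was 0.56, and that of all genes tested was 0.07. Summed over the 10 genes, expression was 645 and 627 CPM in ADRCs and 1155 and 976 CPM in 6F cells, both 6F sums lying above both ADRC sums. B2m and Tapbp supplied most of that gain, as their own values below show.

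**Figure D1:**
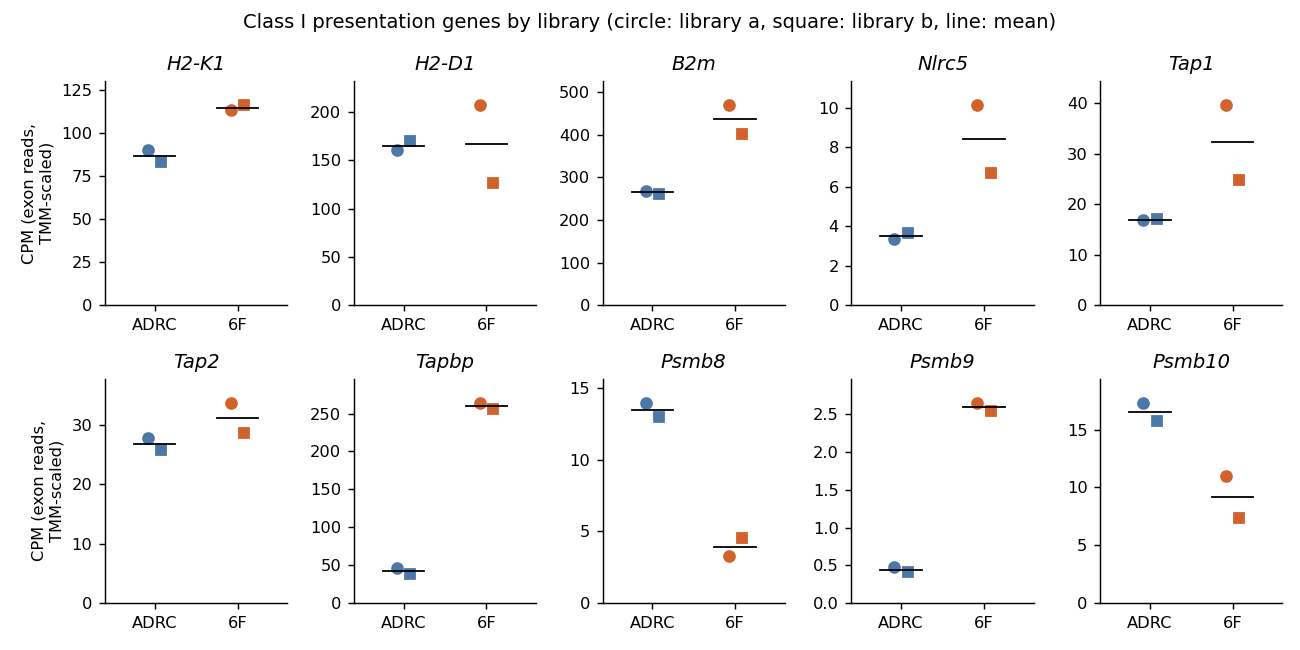
Expression of each of the 10 class I presentation genes in CPM (vertical axis, from 0) in the 2 ADRC and 2 6F libraries; circles are library a, squares library b and lines the group mean. Tapbp stands at 264 and 256 CPM in 6F cells against 45.7 and 38.0 in ADRCs, Psmb8 lies lower in both 6F libraries, and the 6F libraries of H2-D1 lie on either side of the ADRC libraries.

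H2-K1 and H2-D1 encode the classical heavy chains, which carry the peptide groove and bind the T cell receptor. H2-K1 lies on chromosome 17 at 33996017 to 34000347 (minus strand) and H2-D1 at 35262730 to 35267499 (plus strand) in GRCm38. H2-K1 had 187 and 206 exon reads in ADRCs and 940 and 868 in 6F cells. That is 86.7 ± 4.72 CPM (SD, n = 2) in ADRCs and 115 ± 2.10 CPM in 6F cells, with both 6F libraries above both ADRC libraries. The log2 fold change was 0.41 ± 0.15 (SE) with an adjusted p of 0.0634, so the difference did not pass the threshold. It passed without 6F library a (adjusted p 0.000371) and without 6F library b (adjusted p 0.000589), fits in which the spread rests on the ADRC pair. H2-D1 had 333 and 420 reads in ADRCs and 1718 and 942 in 6F cells.
The 6F libraries of H2-D1 disagreed with each other, at 207 and 126 CPM, and enclosed the ADRC libraries at 160 and 170 CPM. Its log2 fold change was 0.02 ± 0.25 with an adjusted p of 0.963. It was called lower without 6F library a (log2 fold change -0.38, adjusted p 0.000572) and higher without 6F library b (0.36, adjusted p 0.000516), so its direction rested on which 6F library was kept.

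B2m encodes the small invariant light chain that every classical heavy chain needs to reach the cell surface. It lies on chromosome 2 at 122147686 to 122153083 (plus strand), apart from the other class I genes. Its exon reads were 558 and 643 in ADRCs and 3889 and 2998 in 6F cells. Expression rose from 264 ± 5.97 to 436 ± 47.6 CPM, and both 6F libraries lay above both ADRC libraries. The log2 fold change was 0.72 ± 0.16 (adjusted p 0.0110). The call was lost without ADRC library a (adjusted p 0.176) or b (adjusted p 0.203), fits in which the spread rests on the 6F pair, while the log2 fold change stayed at 0.71 and 0.68. Relative to B2m, heavy chain reads were fewer in 6F cells. Counted per kilobase of exon, H2-K1 and H2-D1 together stood at 0.310 and 0.323 of B2m in ADRCs and at 0.227 and 0.200 in 6F cells. The ratio of H2-D1 to H2-K1 per kilobase was 1.80 and 2.06 in ADRCs, and 1.85 and 1.10 in 6F cells, where library b stood apart.

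The windows of 250 bases before the RefSeq start of H2-K1, H2-D1 and B2m (GRCm38.p6) are shown because they hold the elements known from class I promoters. Capitals mark matches, on either strand, to the IRF core AANNGAAA, the kappa B site GGATTCCC, the Y box CCAAT, site alpha TGACGC and the GAS element TTCNNNGAA; no 2 marked matches overlap. The windows are chr17:34000348-34000597 (minus strand), chr17:35262844-35263093 (plus strand) and chr2:122147437-122147686 (plus strand), printed in the direction of each gene. The H2-D1 window lies inside the GENCODE gene.
H2-K1: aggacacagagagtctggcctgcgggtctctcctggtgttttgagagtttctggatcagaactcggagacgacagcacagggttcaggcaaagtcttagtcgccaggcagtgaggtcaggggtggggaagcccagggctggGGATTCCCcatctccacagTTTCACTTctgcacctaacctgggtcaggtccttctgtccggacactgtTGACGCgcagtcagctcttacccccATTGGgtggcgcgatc
H2-D1: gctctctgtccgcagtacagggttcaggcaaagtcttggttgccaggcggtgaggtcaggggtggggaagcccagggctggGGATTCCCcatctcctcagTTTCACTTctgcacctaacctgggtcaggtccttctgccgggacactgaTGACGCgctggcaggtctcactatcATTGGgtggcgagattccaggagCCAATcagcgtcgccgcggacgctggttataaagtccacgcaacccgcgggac
B2m: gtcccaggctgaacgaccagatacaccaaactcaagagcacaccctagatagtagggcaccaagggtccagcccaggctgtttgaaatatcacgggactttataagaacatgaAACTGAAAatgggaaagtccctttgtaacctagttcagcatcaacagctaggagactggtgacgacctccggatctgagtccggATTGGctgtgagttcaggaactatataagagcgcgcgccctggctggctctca
The windows of H2-K1 and H2-D1 share a run of 47 identical bases and hold the same order of kappa B site, IRF core, site alpha and Y box. No other pair among the 8 class I genes with a window shares a run over 11 bases in this direction. On opposite strands, however, the windows of Tap1 (chr17:34187306-34187555) and Psmb9 (chr17:34187331-34187580) overlap over most of their length. The kappa B letters are in 0.834% of the 32851 mouse promoter windows of this length, site alpha in 6.12%, the IRF core in 21.3% and the Y box in 33.8%. B2m holds an IRF core and a Y box, and H2-K1, H2-D1 and B2m are the 3 of 8 class I genes with an IRF core in the window. A match describes letters only.

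Tapbp rose more than any other class I gene with over 3 ADRC reads. It encodes tapasin, the adaptor of the peptide loading complex that tethers TAP to the heavy chain. Its exon reads were 95 and 94 in ADRCs and 2189 and 1911 in 6F cells. Expression rose from 41.9 ± 5.44 to 260.3 ± 5.58 CPM, a log2 fold change of 2.64 ± 0.17 (adjusted p 0.000189), with each 6F library far above each ADRC library. It was called higher under all 11 other settings of scaling, filter, depth, test and libraries, with log2 fold changes from 2.49 to 2.87, and also with a 2-fold threshold. In the authors' deposited table, Tapbp had a fold change of 6.44 (false discovery rate 0.00309) and B2m one of 1.74 (0.00659). Those were the only class I genes of the 10 with an authors' false discovery rate under 0.05, which 3.35% of the genes tested here reached.

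Tapbp lies on chromosome 17 at 33915899 to 33929292 (plus strand). Its exons share 904 bases, 24.9% of their length, with the antisense transcript Gm19412, and 149 bases with Zbtb22 on the same strand. Since the library kit was not named as one that marks strand, reads in shared bases could belong to either gene. Gm19412 was assigned only 2 and 2 reads in ADRCs and 8 and 5 in 6F cells. Zbtb22 (log2 fold change -0.08), Daxx (-0.14) and Rgl2 (0.23), the neighbours on both sides, were not called.

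Tap1 and Tap2 encode the paired subunits of the peptide pump. Tap1 had 35 and 42 exon reads in ADRCs and 328 and 185 in 6F cells. Its expression rose from 16.9 ± 0.103 to 32.2 ± 10.4 CPM, both 6F libraries lying above both ADRC libraries and well apart from each other. The log2 fold change was 0.93 ± 0.29 (adjusted p 0.0389). That call was lost without ADRC library a (adjusted p 0.180) or b (0.182), with all libraries thinned to the shallowest (0.0756) and by the DESeq2 Wald test (0.0778). Tap2 had 58 and 64 reads in ADRCs and 280 and 214 in 6F cells. Tap2 stood at 26.9 ± 1.43 CPM in ADRCs and 31.3 ± 3.60 CPM in 6F cells, and its log2 fold change of 0.22 ± 0.20 did not pass the threshold (adjusted p 0.407). Without 6F library b its log2 fold change was 0.36, with an adjusted p of 0.0498. The ratio of Tap2 to Tap1 per kilobase was 2.40 and 2.21 in ADRCs and 1.24 and 1.68 in 6F cells. That of Tapbp to Tap1 was 4.51 and 3.72 in ADRCs and 11.1 and 17.2 in 6F cells, so neither ratio overlapped between the groups. Levels of most tested genes did not overlap either, with 6F above for 40.5% and below for 37.4%.

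The 250 bases before the RefSeq starts of Tap1 and Tapbp are shown since both genes rose, with capitals as above. The windows are chr17:34187306-34187555 and chr17:33919228-33919477, both on the plus strand, and the RefSeq start of Tapbp lies inside the GENCODE gene.
Tap1: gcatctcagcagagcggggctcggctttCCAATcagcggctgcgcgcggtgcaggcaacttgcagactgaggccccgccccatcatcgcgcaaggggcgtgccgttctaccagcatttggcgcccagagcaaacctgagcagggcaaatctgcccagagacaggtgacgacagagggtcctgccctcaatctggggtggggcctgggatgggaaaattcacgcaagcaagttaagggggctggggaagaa
Tapbp: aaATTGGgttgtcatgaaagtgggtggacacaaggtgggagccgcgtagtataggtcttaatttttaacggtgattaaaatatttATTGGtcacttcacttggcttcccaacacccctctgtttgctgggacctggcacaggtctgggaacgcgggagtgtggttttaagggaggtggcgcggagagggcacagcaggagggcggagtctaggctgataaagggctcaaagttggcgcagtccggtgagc
Of the elements searched, these 2 windows hold only the Y box, as a single match in Tap1 and as a pair in Tapbp.

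Nlrc5, the transactivator of class I genes, was the member with the lowest read density but 1. It lies on chromosome 8 at 94434356 to 94527272 (plus strand). Its exon reads were 7 and 9 in ADRCs and 84 and 50 in 6F cells. Expression was 3.51 ± 0.192 CPM in ADRCs and 8.42 ± 2.43 CPM in 6F cells, with both 6F libraries above both ADRC libraries. The log2 fold change of 1.26 ± 0.43 just missed the threshold (adjusted p 0.0518). It passed with no low-count filter (0.0357), with scaling by library size (0.0290) and without 6F library b (0.000327).

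**Figure D2:**
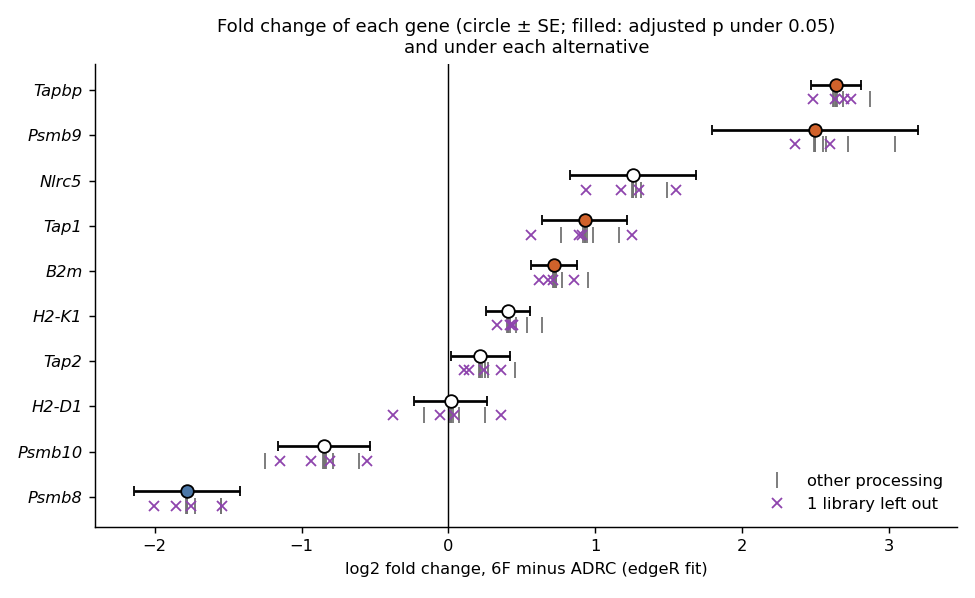
Log2 fold change of each class I gene, 6F minus ADRC, as circles with bars of 1 SE (filled orange for called higher, filled blue for called lower, white for not called), with ticks for other processing and crosses for fits with 1 library left out. Tapbp stays between 2.49 and 2.87, whereas H2-D1 falls on both sides of 0, from -0.38 to 0.36.

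The immunoproteasome subunits went in different directions. Psmb8 encodes the subunit with chymotrypsin-like activity (LMP7), and its neighbour Psmb9 encodes LMP2. Psmb8 had 29 and 32 exon reads in ADRCs and 27 and 34 in the deeper 6F libraries. Expression fell from 13.5 ± 0.716 to 3.91 ± 0.920 CPM, a log2 fold change of -1.78 ± 0.36 (adjusted p 0.00884), with both 6F libraries below both ADRC libraries. The adjusted p was 0.0696 without ADRC library a and 0.0605 without ADRC library b, with log2 fold changes of -1.75 and -1.86. Psmb10, which encodes MECL-1 and lies on chromosome 8 at 105935735 to 105938444 (minus strand), had 36 and 39 reads in ADRCs and 91 and 55 in 6F cells. It stood at 16.6 ± 1.10 CPM in ADRCs and 9.18 ± 2.55 CPM in 6F cells, with both 6F libraries below both ADRC libraries. The log2 fold change of -0.84 ± 0.31 did not pass the threshold (adjusted p 0.0660). It passed without 6F library a (0.000168), without 6F library b (0.0367) and with all libraries thinned to the shallowest (0.0337).

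Psmb9 was nearly unread in ADRCs, with 1 read in each library, and had 22 and 19 reads in 6F cells. It passed the low-count filter only through its 6F libraries, so a lower call was not open to it. The pooled ratio of 6F to ADRC expression was 5.92, with a 95% exact interval of 1.54 to 50.6 that covers counting error only, and edgeR's adjusted p was 0.0271. The call was lost without ADRC library a (adjusted p 0.201) or b (0.252), with no low-count filter (0.0522) and by the DESeq2 Wald test (0.205). Without ADRC library b the interval of the ratio was 0.918 to 219. Psmb9 (chromosome 17, 34181987 to 34187764, minus strand) and Tap1 (34187553 to 34197225, plus strand) point away from each other and share 212 exon bases, within which reads of both genes could be exchanged.

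Psmb8 (34197721 to 34201454, plus strand) starts just past Tap1 and is followed by Tap2 (34203527 to 34216321, plus strand), so the gene called lower lies between a gene called higher and a gene not called. Its 250 bases before the RefSeq start, chr17:34197945-34198194 on the plus strand, lie inside the GENCODE gene. They are shown because Psmb8 is the only class I gene of the 8 with a GAS element in the window. Those letters are found in 7.02% of all windows.
Psmb8: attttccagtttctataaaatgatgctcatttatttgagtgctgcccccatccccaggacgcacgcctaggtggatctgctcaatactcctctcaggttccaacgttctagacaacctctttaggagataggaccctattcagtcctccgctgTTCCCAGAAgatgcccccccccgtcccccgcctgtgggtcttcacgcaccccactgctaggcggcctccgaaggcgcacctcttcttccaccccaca

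The catalytic pairs were compared as the share of reads that came from the immunoproteasome subunit. Psmb8 made up 13.6% and 16.5% of the Psmb8 plus Psmb5 reads in ADRCs and 3.02% and 5.88% in 6F cells. Psmb10 made up 15.4% and 12.7% of the Psmb10 plus Psmb7 reads in ADRCs and 9.23% and 8.57% in 6F cells. Psmb9 made up 0.654% and 0.493% of the Psmb9 plus Psmb6 reads in ADRCs and 3.11% and 3.86% in 6F cells. The groups did not overlap for any of the 3 pairs, the Psmb8 and Psmb10 shares being lower and the Psmb9 share higher in 6F cells. Levels of most tested genes did not overlap either. An exact two-sided permutation test gave p = 0.333 for each pair, the smallest that 2 against 2 libraries allow. Psmb5 (log2 fold change 0.21), Psmb6 (-0.09) and Psmb7 (-0.13) were not called.

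**Figure D3:**
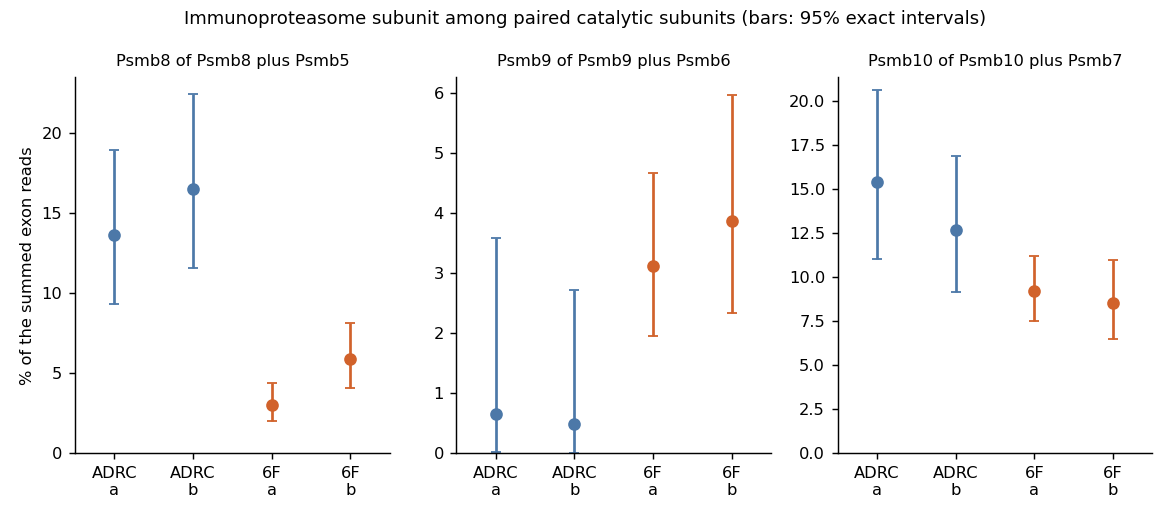
Share of exon reads from the immunoproteasome subunit among the reads of that subunit and its constitutive counterpart, in percent (vertical axis, from 0), for each library with 95% exact (Clopper-Pearson) intervals of counting error. The Psmb8 share lies at 13.6% and 16.5% in ADRCs and at 3.02% and 5.88% in 6F cells, whereas the Psmb9 share is under 1% in both ADRC libraries and over 3% in both 6F libraries.

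Levels of the 10 genes were also ordered per length, as TPM, in which counts are divided by the deposited exon length before scaling to the library. In ADRCs B2m stood at 876 ± 30.6 TPM, above 98.8% of tested genes in both libraries, followed by H2-D1 at 182 ± 5.28, H2-K1 at 94.7 ± 6.32 and Tapbp at 36.2 ± 5.15 TPM. Below them came Psmb10 at 27.7, Tap2 at 20.3, Psmb8 at 14.7 and 13.4 in libraries a and b, Tap1 at 8.80, Nlrc5 at 1.18 and Psmb9 at 0.345 TPM. No neighbours in that order overlapped between their libraries. In 6F cells B2m stood at 1843 ± 202 TPM, Tapbp at 287 ± 6.26, H2-D1 at 235 ± 80.9 and H2-K1 at 160 ± 2.87 TPM. Tapbp thus moved from the fourth place to the second, although its 6F libraries overlapped those of H2-D1. Tap2 at 30.1, Tap1 at 21.4, Psmb10 at 19.6, Psmb8 at 5.20, Nlrc5 at 3.61 and Psmb9 at 2.59 TPM followed. There Tap1 overlapped Psmb10, and Psmb8 overlapped Nlrc5.

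Of the 10 partners that load and trim class I peptides, 2 were called higher and 4 lower, with a median log2 fold change of 0.00. These and the list counts below stand beside 24.2% of all genes tested called higher and 22.8% called lower. Far fewer of all genes were called with an ADRC library left out, and the counts given below for such fits stand beside that general loss. The 4 lower genes were chaperones and a channel of the endoplasmic reticulum. Calr, the lectin chaperone calreticulin of the loading complex, fell from 1522 ± 81.7 to 599 ± 140 CPM (log2 fold change -1.35, adjusted p 0.00341). Sec61a1, the core of the translocation channel, fell by 1.06 on the log2 scale, Hspa5, the chaperone BiP, by 0.88, and Pdia3, the oxidoreductase ERp57 bound to tapasin, by 0.75. Lnpep (log2 fold change 1.99), an aminopeptidase known from cross-presentation, and Npepps (1.13), a cytosolic aminopeptidase, rose. Erap1, which trims peptides in the endoplasmic reticulum, had 34 and 53 reads against 236 and 186 and was not called (log2 fold change 0.49, adjusted p 0.128). Tapbpl, the tapasin relative TAPBPR, was at 6.92 CPM in ADRCs and 7.97 CPM in 6F cells and was not called (0.21). Without ADRC library a or b, 1 of these 10 genes was higher and 1 or 2 lower.

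Among the 5 tested of 6 genes for proteasome activators and assembly, Psme2, a subunit of the interferon-inducible PA28 cap, rose from 22.8 ± 0.309 to 58.1 ± 15.7 CPM (log2 fold change 1.35, adjusted p 0.00643). Its partner Psme1 was not called (-0.51), and Psme3, the nuclear PA28 gamma, fell by 0.82. Of 7 constitutive beta subunits, Psmb2 was called lower (-1.38) and the other 6 were not called. Neither Psme2 nor Psme3 was called without ADRC library a or b.

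Of 20 other class I and class I-like heavy chain genes 11 could be tested, of which 4 were called higher and 1 lower, with a median log2 fold change of 0.68. H2-T23, which encodes the nonclassical molecule Qa-1, had 24 and 34 reads in ADRCs and 305 and 348 in 6F cells (log2 fold change 1.71, adjusted p 0.00237). Mr1, which presents vitamin metabolites to MAIT cells, had 20 and 36 reads against 256 and 264 (1.44, adjusted p 0.00625). H2-T22 (0.77) and the neonatal Fc receptor heavy chain Fcgrt (0.68) also rose, and H2-T24 fell by 1.26. H2-Q6 had 2 and 2 reads against 18 and 49 and was not called (adjusted p 0.0672). It was among the genes that passed the low-count filter only through their 6F libraries. H2-M2 had 0 reads in both ADRC libraries and 43 and 9 in 6F cells, which is at least 5.01-fold higher against a floor of 3 reads over the ADRC group. That bound was 1.83-fold without 6F library a, 7.87-fold without 6F library b, and 2.72-fold and 2.29-fold without ADRC library a or b. Reads of such related genes, H2-K1 and H2-D1 among them, can be split between copies. Without ADRC library a only H2-T23 was called, and without ADRC library b H2-T23 and Mr1.

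The factors that act with NLRC5 and at the kappa B site were divided, with 2 of 12 called higher, 2 lower and a median log2 fold change of -0.13. Rfxank (1.64) and Rfx5 (0.80), parts of the RFX complex, rose, while the NF-Y subunits Nfyc and Nfya fell by 0.73 and 0.71. Rela (-0.29) and Nfkb1 (-0.57), subunits of NF-kappa B, were not called. Of 16 interferon receptor and signalling genes 4 were called higher and 1 lower, with a median of 0.20. The share called higher, 25%, was near the 24.2% of all genes tested. Irf7 (2.00), Stat2 (1.03), Irf9 (0.69) and the receptor chain Ifngr2 (0.56) rose, and the kinase Jak1 fell by 0.69. Irf1 (-0.42), which drives class I genes after interferon gamma, was not called. Without ADRC library a none of the 28 genes of these lists was called, and without ADRC library b only Rfxank and Irf7 were.

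All 8 interferon ligand genes listed, among them Ifng and Ifnb1, were without a read in any of the 4 libraries, so that levels of up to 0.659 CPM in ADRCs and 0.191 CPM in 6F cells (3 reads over each group) could have gone unseen. Of 24 interferon-stimulated genes 18 could be tested, and 11 of them were called higher and 2 lower, with a median log2 fold change of 1.93. Mx2, Ifi44 and Gbp3 were among those that passed the low-count filter only through their 6F libraries. That selection favours higher calls and a higher median. Ifit3 had 6 and 6 reads in ADRCs and 294 and 130 in 6F cells (3.31, adjusted p 0.00316). Mx2 had 1 and 0 reads against 31 and 26, a pooled ratio of 16.5 (95% exact interval 2.84 to 662), and Ifi44 had 0 and 1 against 16 and 16, a ratio of 9.25 (1.54 to 377). Without ADRC library b the Mx2 ratio was 7.52 (1.30 to 302), and without ADRC library a that of Ifi44 was 5.02 (0.839 to 205). With the ADRC library that holds the single read left out, the bounds were at least 2.98-fold for Mx2 and 1.41-fold for Ifi44. Gbp3, an interferon-inducible GTPase, had 1 and 4 reads against 80 and 61 (3.01). Ifitm3 and Irgm1 fell, by 0.84 and 0.81. Oasl2 (0.49) and Bst2 (0.94) were not called. Without ADRC library a 4 of the list were called higher, and without ADRC library b 5, with 0 lower in both.

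**Figure D4:**
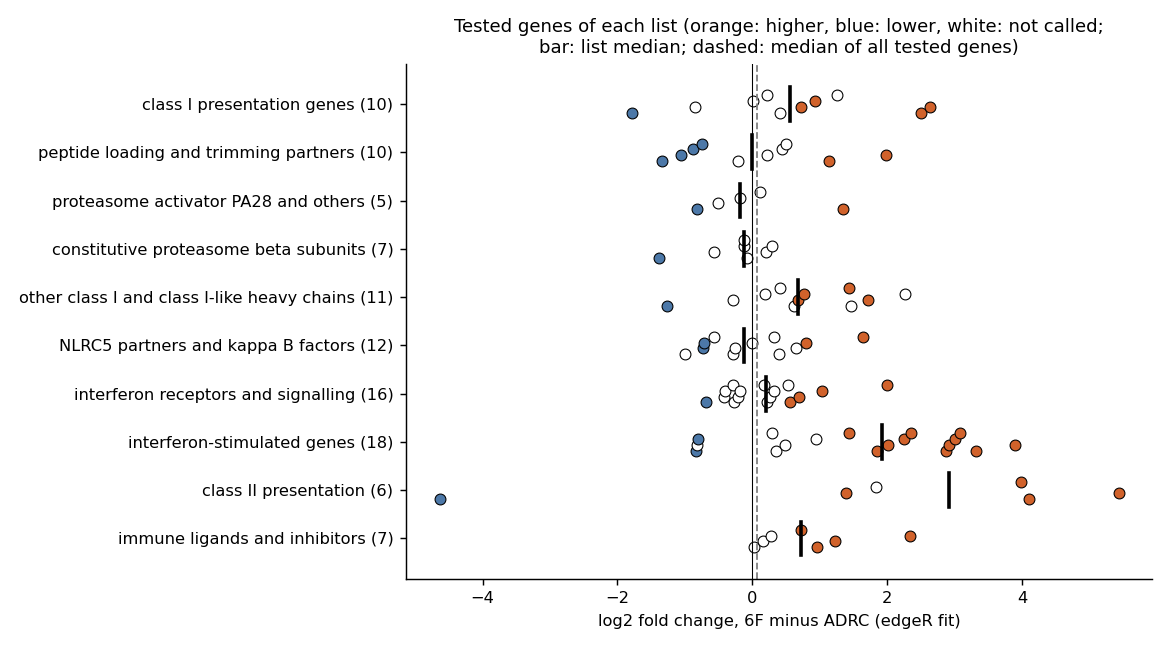
Log2 fold change, 6F minus ADRC, of each tested gene in the class I list and in the lists of related genes (number tested in brackets); orange is called higher, blue called lower and white not called, bars are list medians and the dashed line is the median of all tested genes. The medians of the class II (2.91) and interferon-stimulated (1.93) lists lie to the right of that of the 10 class I genes (0.56). These lists all hold genes that passed the low-count filter only through their 6F libraries.

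Of 9 genes of class II presentation, the pathway that shows peptides to CD4+ T cells, 6 could be tested. Of these, 4 were called higher and 1 lower, with a median of 2.91. H2-Ab1, H2-Eb1, H2-DMa and Cd74 passed the low-count filter only through their 6F libraries, and Ctss only through its ADRC libraries. The counts and the median rest largely on genes selected in this way. The class II beta chain H2-Ab1 had 5 and 2 reads in ADRCs and 207 and 186 in 6F cells (log2 fold change 3.99, adjusted p 0.000943). H2-Eb1 had 1 and 0 reads against 95 and 72, a pooled ratio of 48.3 (8.54 to 1918), and H2-DMa 0 and 1 against 31 and 34, a ratio of 18.8 (3.25 to 753). Without ADRC library b the H2-Eb1 ratio was 22 (3.90 to 876), and without ADRC library a that of H2-DMa was 10.2 (1.77 to 409). Without the library of the single ADRC read, H2-Eb1 was at least 8.74-fold and H2-DMa at least 2.86-fold higher. Ctss, the protease cathepsin S, fell from 121 and 154 reads to 0 and 37 (-4.63, adjusted p 0.00877). H2-Aa, the alpha chain that pairs with H2-Ab1, had 0 reads in both ADRC libraries and 5 and 13 in 6F cells. Cd74, the invariant chain, had 5 and 1 reads against 37 and 39 (1.84, adjusted p 0.0711). Without ADRC library a or b, H2-Ab1 and H2-Eb1 were still called higher and Ctss lower. The Ctss call was lost by the DESeq2 Wald test (adjusted p 0.170). All its 6F reads came from library b, and with that library alone as the 6F group the log2 fold change was -3.59.

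Markers of other cells that carry class I and class II molecules were read alongside. Of the macrophage and dendritic markers other than class II genes, 3 of 6 tested were called lower in 6F cells and none higher. Their summed level was 248 and 261 CPM in ADRCs, 10.7 CPM in 6F library a and 108 CPM in 6F library b. In 6F library a, Ptprc, Adgre1 and Fcgr1 had 0 reads, while Csf1r had 39, Lyz2 34, Cd68 12 and Itgax 4. In 6F library b all 7 markers had reads, from 3 for Fcgr1 to 609 for Lyz2. Cd68 and Itgax, both called lower, passed the low-count filter only through their ADRC libraries. Psmb8, Psmb10 and Ctss were lower in the 6F libraries, as the summed markers were, and H2-Ab1, B2m and Tapbp were higher; the part of such cells in these results was not tested. Of the T and NK cell markers, Cd3e, Cd3g, Gzmb and Ncr1 had 0 reads in every library. Nkg7, the only 1 tested, was called higher, with 0 reads in ADRCs and 18 and 40 in 6F cells. That is at least 5.59-fold against the floor of 3 reads, and 2.55-fold to 8.14-fold with 1 library left out. Nkg7 passed the low-count filter only through its 6F libraries, so a lower call was not open to it. Cd8a had 1 read over the ADRC libraries and 6 over the 6F libraries. B cell markers had 0 reads in ADRCs and 0.241 and 0.671 CPM in all in 6F libraries a and b.

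Ligands read by T cells, NK cells and phagocytes, and inhibitors of granzyme and complement, formed a mixed list, in which 5 NKG2D ligand genes activate NK and T cells and the others restrain an attack. Of the 10 genes, 7 could be tested, and 4 were called higher and 0 lower, with a median of 0.73. Serping1, the C1 inhibitor of the complement system, rose from 61.9 ± 1.68 to 313 ± 57.8 CPM (log2 fold change 2.34, adjusted p 0.000381). Serpinb9, an inhibitor of granzyme B in human cells, rose by 1.23, the activating NKG2D ligand Ulbp1 by 0.95 and Cd47, a signal against phagocytosis, by 0.73. Cd274, which encodes PD-L1, had 5 and 10 reads in ADRCs and 24 and 28 in 6F cells (0.02, adjusted p 0.972). Without ADRC library a Serping1 and Serpinb9 were called, and without ADRC library b only Serping1.

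Genes near the class I genes were read in the same way. Within 50 kb of a class I gene, 25 other genes could be tested, of which 6 were called higher (24%) and 8 lower (32%), beside 24.2% and 22.8% of all genes tested. On chromosome 17 these were 18 genes, with 5 higher (H2-Ke6, Col11a2, H2-DMa, H2-DMb1 and H2-Ab1) and 6 lower (Kifc1, Pfdn6, Wdr46, Rps18, Slc39a7 and Ddx39b). The RefSeq start sites of Tap1 and Psmb9, both called higher, are 226 bases apart, while the GENCODE positions given above overlap. Near Psmb10 on chromosome 8, Slc12a4 was the 1 gene called higher (log2 fold change 1.16), while Psmb10 itself was not called.

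**Figure D5:**
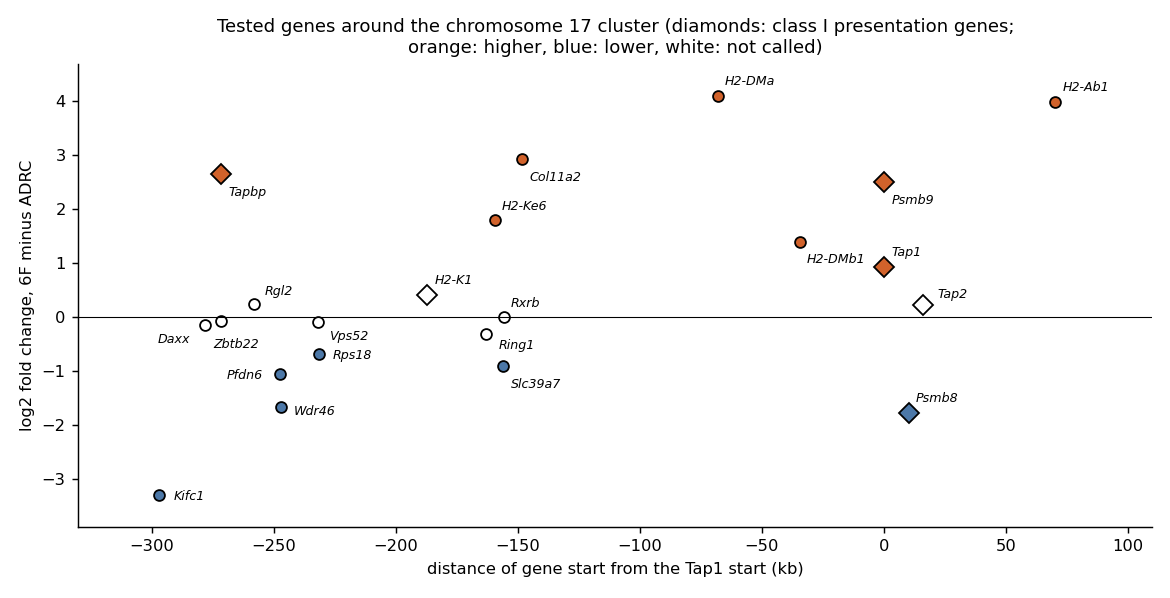
Log2 fold change, 6F minus ADRC, of class I presentation genes (diamonds) and of other tested genes within 50 kb of them (circles) against the distance of each gene start from that of Tap1 in kilobases, for the chromosome 17 cluster without H2-D1, which lies farther away. Orange is called higher, blue called lower and white not called: Psmb8 (-1.78) lies below 0 between Tap1 (0.93) and Tap2 (0.22), and Zbtb22, Daxx and Rgl2 lie near 0 beside Tapbp (2.64).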

How the data were processed

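Libraries came from RNA without its ribosomal part, by a kit not named as strand-marking, per the labels' protocols. The submitters' processing notes name the build GRCm38; for aligner and counting tool, neither is given in the sources used here. A single table of 50600 genes was read. Its total exon reads of each library, per the file headers, are whole-number counts and were used as deposited. The authors' comparison, deposited in the same table, gives a fold change as a signed score and a false discovery rate, a p-value adjusted by the authors. A further 52 columns of per-sample values were not used. Columns are named by group without a replicate number, and a and b imply no order.

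Left out were 18045 genes with a listed exon length of 0, all without reads. Counts of the other 32555 were filtered with filterByExpr, scaled by TMM and tested with edgeR 4.0.16 (limma 3.58.1, R 4.3.3) by the quasi-likelihood test. A gene could pass that filter through a single group, which favours a call toward that group. P-values were adjusted by Benjamini and Hochberg's method over 12573 genes, with a threshold of 0.05. SEs were obtained as the absolute log2 fold change over the root of F. Floors (3 reads over a group) and 95% exact intervals cover counting error only. For groups of 1 to 3 reads, the ratio of pooled scaled counts is given. The procedure was tested on simulated data. Positions are from GENCODE M21 (GRCm38), 1-based. Promoter windows are from RefSeq (GRCm38.p6), where 8 of the 10 genes matched, all but Tap2 and Nlrc5.

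The class I genes, the 10 lists of related genes and the 7 marker lists were chosen with earlier results of these data known. Every class I gene is named. From each related list up to 4 called genes by size of change and up to 2 others are named, with Psmb5, Psmb6 and Psmb7. Hspa5, Pdia3, Rfx5, Nfya, Ifngr2, Ifitm3 and Irgm1 and neighbouring genes were named after their values were seen. Alternatives were DESeq2 size factors, library size, 2 other low-count filters, leaving out 3 genes that collect ribosomal reads, thinning to the shallowest library, the DESeq2 1.42.0 Wald test, a 2-fold threshold and leaving out each library.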

Additional observations from a re-analysis of the deposited data

How the results depend on the processing

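Tapbp was called higher under the 11 other settings and with a 2-fold threshold. Of the class I genes, 4 were called higher under DESeq2 size factors, a mean of at least 1 CPM, no low-count filter and the omission of 3 genes that collect ribosomal reads, though with no filter Nlrc5 stood in place of Psmb9. The DESeq2 Wald test called 2 higher (B2m and Tapbp), a 2-fold threshold 2 (Psmb9 and Tapbp), and leaving out 1 library at a time between 1 and 7. Called lower were 2 with thinned libraries (Psmb8 and Psmb10) and between 0 and 3 with 1 library left out. Over all genes, 5908 were called, and between 2385 and 8572 with 1 library left out, the low counts without an ADRC library and the high counts without a 6F library. H2-D1 turned negative with thinned libraries (-0.16); with 1 library left out it ran from -0.38 (no 6F library a) to 0.36 (no 6F library b), and was -0.06 when ADRC library a was dropped; the cause was not tested. Scaling by library size gave 6 class I genes higher and 1 lower; the median over all genes went from a log2 fold change of 0.07 to 0.30 and the split of calls from 3038 higher and 2870 lower to 3920 and 2128. Over all genes, the DESeq2 Wald test called 2459 of 13944 higher and 2292 lower. The 2-fold threshold called 2339 of 12573 higher and 1815 lower, and thinning 2433 of 11450 higher and 2279 lower. The class I counts under these settings stand beside those calls. With 1 library left out, class I calls and calls over all genes were fewer without an ADRC library than without a 6F library. Psmb9 was not tested without a 6F library, nor Nlrc5 after thinning. Fits of unique exon reads and of total gene reads were planned but dropped, because only 1 measure a library was used. Catalytic shares from unique reads are not given for the same reason. Whether the smaller exon share of ADRC reads moves the calls was not tested. No paired analysis was possible because the column names carry no replicate number. With 2 libraries in a group and few ADRC reads for Psmb9 and Nlrc5, depth limits what can be said of both.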
